A study of Mus musculus with 8 samples.

Results

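The chromobox (Cbx) genes were followed in the read counts of 8 Oxford Nanopore Technologies (ONT) libraries of mouse embryonic stem cells (ESCs). The 7 genes described are Cbx1, Cbx2, Cbx3, Cbx5, Cbx6, Cbx7 and Cbx8, out of 24421 genes counted. They were selected by gene symbol with their measured counts in both states and on both kits already known, so their levels, fold changes and calls are given as a description, and nothing is supported with them.

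Libraries came from R1 ESCs, a pluripotent mouse line. Undiff cells were grown in ESC medium. Day4 cells were kept for 4 days as embryoid bodies without leukaemia inhibitory factor and then treated for 4 days with retinoic acid (RA), an inducer of differentiation. The RA dose is 2 µM in the study's design text, while the treatment label gives its unit as mM. Each state had 2 cultures, grown and treated separately, and polyadenylated RNA of each culture was sequenced with the Direct RNA kit (500 ng of RNA), which reads the native RNA strand, and with the cDNA kit (50 ng), which copies and amplifies the RNA first. That gave 4 groups of 2 libraries. No genotype was altered in any group.

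Chromobox proteins read methyl marks on histone H3 through a chromodomain, and they fall into a pair of classes. HP1 proteins, encoded by Cbx1 (HP1 beta), Cbx3 (HP1 gamma) and Cbx5 (HP1 alpha), bind the methylated lysine 9 of heterochromatin. The Polycomb proteins, here Cbx2, Cbx6, Cbx7 and Cbx8, bind the methylated lysine 27 and bring canonical Polycomb repressive complex 1 (PRC1) to silenced genes. Each canonical PRC1 holds a single Cbx subunit, and Cbx7 is known as the main one of pluripotent ESCs, replaced by others as cells differentiate.

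The Direct RNA libraries held 283461 to 907489 reads on genes, and the cDNA libraries 948657 to 2088592. Levels are given as CPM, counts per 1e6 reads on genes, and a level of 0 was bounded by 3 reads over the summed reads of a group. The 8 pluripotency markers examined were all lower in Day4 on both kits, and their summed level went from at least 11482 CPM in Undiff to at most 944 CPM in Day4. The marker counts of this paragraph are DESeq2 calls by the rule given below. Of all genes tested, 9.54% were called higher and 7.67% lower in Direct RNA, and 8.69% and 9.24% in cDNA. Of 6 RA response genes, 5 rose in Direct RNA and 6 in cDNA. Of 8 endoderm markers, 5 rose in Direct RNA and 3 in cDNA, and of 6 fibroblast or mesenchyme markers 5 and 4 did. None of 6 neural markers rose, with 1 lower on each kit. Their sum was lower in both Day4 libraries of each kit. In Direct RNA it was 159 to 181 CPM in Undiff and 60.0 to 82.7 CPM in Day4. In cDNA it was 77.0 to 178 CPM and 42.8 to 47.0 CPM. The summed endoderm markers were at 0.958 to 8.61 CPM in Undiff libraries and at 278 to 1002 CPM in Day4 libraries, and the mesenchyme markers at 4.31 to 14.3 CPM and at 227 to 2960 CPM. In these bulk RNA samples fewer cells of a type and less RNA per cell cannot be told apart, and the part of such cells in the Cbx levels was not tested.

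Among the 7 genes the DESeq2 calls between the states fell on Polycomb members. Cbx7 was the one of the 4 Polycomb members with the most reads in Undiff and fell to a low level in Day4 on both kits, while Cbx2 and Cbx8 had higher levels in Day4 and Cbx6 stayed within its spread. A gene was called where DESeq2 gave an adjusted p up to 0.05, the change was 1 or more log2 units either way, and its normalised reads averaged 5 or more. By this rule 2 of the 7 genes were called in Direct RNA, Cbx8 higher and Cbx7 lower, beside 9.54% of all 9646 genes tested called higher and 7.67% called lower. In cDNA only Cbx7 was called, and it was lower, beside 8.69% of 10271 genes called higher and 9.24% called lower. With the edgeR quasi-likelihood test under the same thresholds 3 genes were called in Direct RNA, Cbx2 and Cbx8 higher and Cbx7 lower, and 4 in cDNA, Cbx2 and Cbx8 higher and Cbx3 and Cbx7 lower. That test called more of all genes too, 17.4% higher and 13.9% lower of 9898 in Direct RNA and 15.6% and 14.2% of 10481 in cDNA. The 7 genes had a median log2 fold change of -0.19 with Direct RNA, where all genes tested had 0.03, and of -0.02 with cDNA, where all had 0.00.

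Cbx7 (ENSMUSG00000053411) lies on the minus strand of chromosome 15, at chr15:79915807-79971119 of GRCm38. Its levels in Direct RNA were 109 and 149 CPM in the Undiff libraries and 14.1 and 9.49 CPM in the Day4 libraries. In cDNA they were 21.1 and 32.6 CPM in Undiff and 0.759 and 5.78 CPM in Day4. Both Day4 libraries lay below both Undiff libraries on each kit. The group means, 129 ± 28.1 (SD, n = 2) and 11.8 ± 3.27 CPM in Direct RNA, were 10.9-fold apart, and those in cDNA, 26.8 ± 8.11 and 3.27 ± 3.55 CPM, were 8.21-fold apart. Without 1 library these ratios ran from 9.14 to 13.6 and from 4.64 to 35.4. The fitted log2 fold change was -3.45 (SE 0.65) in Direct RNA and -3.08 (SE 0.81) in cDNA. These calls rested on few reads, 11 in the 2 Direct RNA Day4 libraries and 13 in the cDNA ones. The call was lost in Direct RNA without Undiff replicate 2, at -2.95, and in cDNA without Undiff replicate 2, at -2.64, without Day4 replicate 1, at -2.27, or with all libraries thinned to 283461 reads, at -2.53.

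An exon of Cbx7 shares 100 bases with an exon of Apobec3, an antiviral cytidine deaminase gene on the opposite strand that lies between Cbx6 and Cbx7. Apobec3 had 58 and 124 reads in the Direct RNA Undiff libraries and 3 and 4 in the Day4 ones. In cDNA it had 36 and 112 reads in Undiff and 1 and 12 in Day4. Its log2 fold change was -4.22 (SE 0.68, DESeq2 adjusted p = 3.65e-08) in Direct RNA and -3.84 (SE 0.72, DESeq2 adjusted p = 5.78e-06) in cDNA. Counting used the strand for Direct RNA. For cDNA the setting of the gene counts is not stated, but the study names only Direct RNA as strand-specific and counted cDNA exons without the strand. Reads ambiguous between genes are counted for neither. They were 2.16% to 2.33% of assigned or ambiguous reads in Direct RNA and 7.65% to 8.45% in cDNA. How many cDNA reads of the shared bases were lost from Cbx7 or Apobec3 was not tested.

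Cbx8 (ENSMUSG00000025578), on the minus strand at chr11:119036305-119040969, encodes a PRC1 subunit found in differentiated cells. It had 0 reads in both Direct RNA Undiff libraries, and 8 and 12 reads, or 28.2 and 16.3 CPM, in the Day4 ones. The pooled Day4 level of 19.6 CPM was 8.2-fold the 2.39 CPM that 3 reads over the Undiff group allow. This ratio leaves out the counting error and replicate spread of the Day4 reads, so it is no lower bound. In cDNA Cbx8 had 1 and 2 reads in Undiff and 9 and 23 reads in Day4, a pooled ratio of 9.54 with an exact 95% interval of 2.98 to 48.7 that covers counting error only. The cDNA replicates differed by more than that, with chi-square per degree of freedom of 14.9 in Undiff and 13.7 in Day4 over all genes compared. Both Day4 libraries lay above both Undiff libraries on each kit. Fitted log2 fold changes were 4.11 (SE 1.31) in Direct RNA, where DESeq2 called the gene, and 2.33 (SE 1.17) in cDNA, where it did not. The edgeR test called Cbx8 on both kits, at 6.51 and 2.81, and with 0 reads in Undiff the Direct RNA values are no bound. The DESeq2 call in Direct RNA was lost under the replicate block, at 3.36, after thinning, at 3.58, and without any 1 of the 4 libraries, with values from 2.56 to 3.67.

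Cbx7 and Cbx8 were called in opposite directions in Direct RNA, so the 250 bases upstream of their RefSeq start sites are printed for comparison. The RefSeq promoter table of GRCm38.p6 matched 6 of the 7 genes. Each sequence is on the strand of its gene, from 5′ to 3′, and capitals mark the GC box GGGCGG and the CCAAT box on either strand. The Cbx7 window is chr15:79932647-79932896 and the Cbx8 window chr11:119040914-119041163, both on the minus strand. The Cbx7 window lies inside the GENCODE span given above, upstream of a RefSeq start site within that span.
Cbx7: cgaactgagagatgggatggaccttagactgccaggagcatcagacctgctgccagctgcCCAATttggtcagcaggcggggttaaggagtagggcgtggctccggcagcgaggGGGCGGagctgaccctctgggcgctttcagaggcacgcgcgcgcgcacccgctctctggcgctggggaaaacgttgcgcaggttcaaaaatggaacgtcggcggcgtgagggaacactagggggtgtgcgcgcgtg
Cbx8: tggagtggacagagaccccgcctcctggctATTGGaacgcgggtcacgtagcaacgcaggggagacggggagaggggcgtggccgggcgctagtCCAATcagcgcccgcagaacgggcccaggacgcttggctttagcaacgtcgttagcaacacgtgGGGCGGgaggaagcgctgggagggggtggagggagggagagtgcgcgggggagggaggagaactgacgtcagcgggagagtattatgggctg

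Both windows were rich in CpG. Cbx7 had 64.8% GC and 23 CpG, with an observed over expected CpG ratio of 0.917. Cbx8 had 66.4% GC, 22 CpG and a ratio of 0.909. Over all 32851 promoter windows of that length the medians were 52.4% GC, 6 CpG and 0.374. This richness was not particular to Cbx7 and Cbx8, since the windows of Cbx1, Cbx3, Cbx5 and Cbx6 held from 7 to 31 CpG. The Cbx7 window held 1 GC box and 1 CCAAT box, and the Cbx8 window 1 GC box and 2 CCAAT boxes, against 32.7% of all windows with a GC box and 33.8% with a CCAAT box. The E-box CACGTG, found in 6.02% of all windows, occurred in Cbx8, Cbx5 and Cbx6 and overlapped neither marked motif. The RA half-site AGGTCA (14.0% of all windows), the octamer ATGCAAAT (1.60%) and the TATA box TATAAA (12.4%) were searched on both strands and occurred in no window of the 6 genes. These are matches of letters in a fixed window and not binding sites.

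Cbx2 (ENSMUSG00000025577), which compacts chromatin as a PRC1 subunit, lies at chr11:119022962-119031270 on the plus strand, 5034 bases from Cbx8. Its Direct RNA levels were 40.2 and 38.6 CPM in Undiff and 113 and 92.2 CPM in Day4. In cDNA they were 2.11 and 4.31 CPM in Undiff and 15.9 and 18.3 CPM in Day4. Both Day4 libraries lay above both Undiff libraries on each kit, with means 2.60-fold apart in Direct RNA and 5.33-fold in cDNA, the latter from 3.97 to 8.12 without 1 library. The log2 fold changes of 1.22 (SE 0.55) and 1.85 (SE 0.89) were not called by DESeq2, and the edgeR quasi-likelihood test called both, at 1.25 and 1.98.

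Cbx6 (ENSMUSG00000089715), another PRC1 subunit, lies at chr15:79823896-79834688 on the minus strand, 81118 bases from Cbx7. Its levels were 28.7 and 27.5 CPM in Direct RNA Undiff and 31.8 and 27.1 CPM in Direct RNA Day4. In cDNA they were 9.49 and 11.97 CPM in Undiff and 9.10 and 17.8 CPM in Day4. The states overlapped on both kits, and the log2 fold changes were -0.05 (SE 0.76) and -0.02 (SE 0.79). The 95% intervals of these changes, -1.55 to 1.45 and -1.56 to 1.52, include a change by the called size in either direction. Cbx6 shares 563 exon bases with Npcd on the same strand, which had 0 reads in every library. Reads ambiguous between these genes are counted for neither, so that does not show that Cbx6 lost no reads there.

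**Figure D1:**
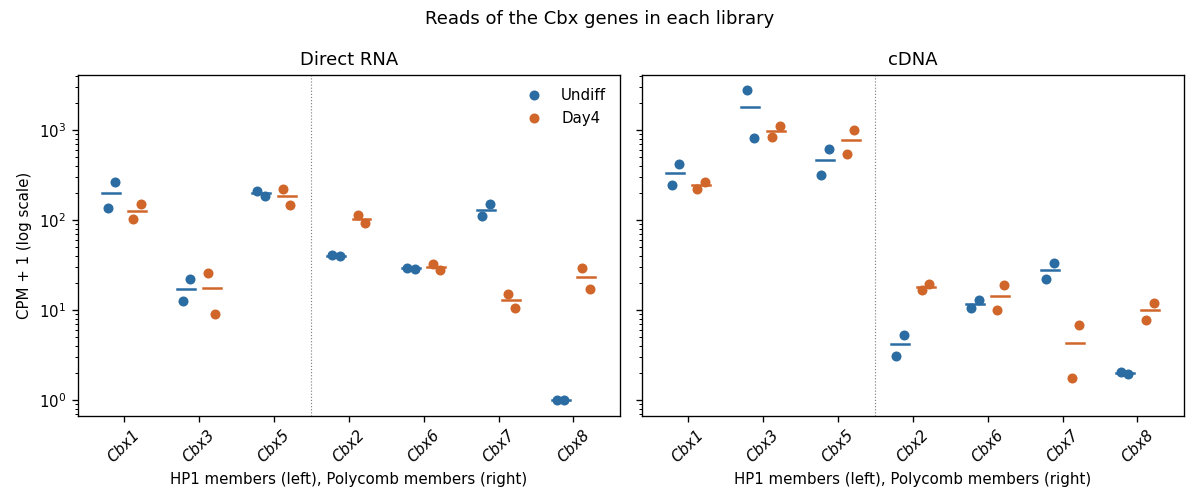
Levels of the 7 Cbx genes in each library, as CPM + 1 on a log scale, with Direct RNA on the left and cDNA on the right. Points are libraries, 2 for each state, and bars are means. Cbx7 is lower and Cbx2 and Cbx8 are higher in both Day4 libraries of each kit, while the states of Cbx1, Cbx3, Cbx5 and Cbx6 overlap.

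The make-up of the Polycomb Cbx reads was compared as the share of each gene among the reads of Cbx2, Cbx6, Cbx7 and Cbx8, which does not depend on the total of the library. In Direct RNA Cbx7 took 61.3% (95% Wilson interval 48.8 to 72.4, 62 reads) and 69.2% (62.4 to 75.3, 195 reads) in the Undiff libraries. It took 7.55% (2.97 to 17.9, 53 reads) and 6.54% (3.20 to 12.9, 107 reads) in the Day4 libraries. In cDNA the Cbx7 share was 62.5% (45.3 to 77.1, 32 reads) and 65.4% (55.8 to 73.8, 104 reads) in Undiff, and 2.33% (0.412 to 12.1, 43 reads) and 10.9% (6.35 to 18.1, 110 reads) in Day4. No interval of an Undiff library overlapped one of a Day4 library. The intervals cover counting error only, and the amplified cDNA reads are not independent molecules.

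In Day4 Cbx2 had the highest mean share of these reads on both kits, but in cDNA Day4 replicate 2 it stood 1 read above Cbx6, with 38 and 37 of 110 reads (34.5%, 26.3 to 43.8, and 33.6%, 25.5 to 42.9). The mean Cbx2 share was 20.3% in Direct RNA Undiff and 62.0% in Direct RNA Day4, and 7.45% and 41.7% in cDNA. For Cbx8 the Undiff and Day4 shares were 0% and 13.2% with Direct RNA, while cDNA gave 2.52% and 20.9%. The Cbx6 share was 14.5% in Undiff and 17.8% in Day4 of Direct RNA, and 26.1% and 30.8% in cDNA. With reads divided by the length of the longest coding transcript, the mean Cbx7 share went from 71.1% to 8.28% with Direct RNA and from 72.5% to 8.15% with cDNA. The sum of the 4 genes did not separate the states, at 178 and 215 CPM in Undiff and 187 and 145 CPM in Day4 of Direct RNA, and at 33.7 and 49.8 CPM against 32.6 and 52.95 CPM in cDNA.

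**Figure D2:**
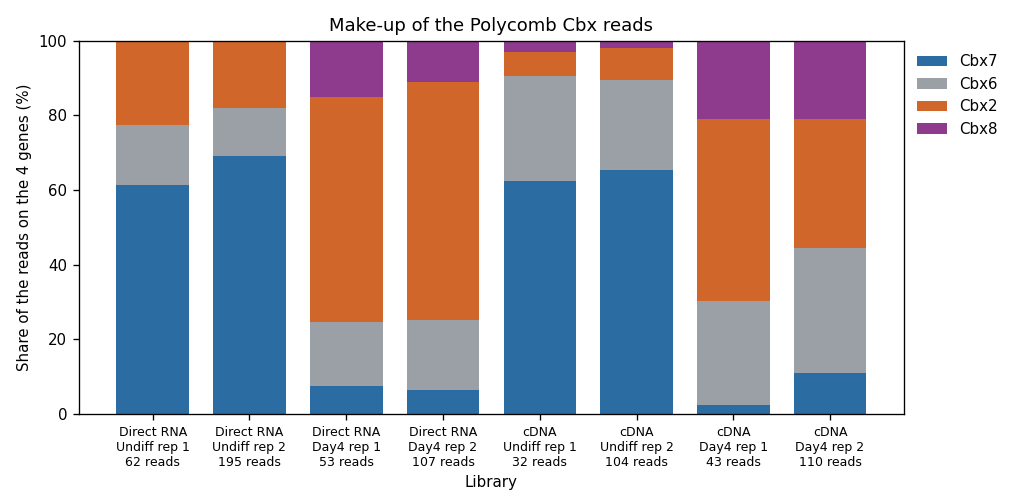
Share of each gene, in percent, among the reads of Cbx2, Cbx6, Cbx7 and Cbx8, with 1 bar for each of the 8 libraries and the number of reads under it. Cbx7 fills 61.3% to 69.2% of every Undiff bar and 2.33% to 10.9% of every Day4 bar, on both kits.

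The HP1 members overlapped between the states on both kits. Cbx1 (ENSMUSG00000018666), at chr11:96789127-96808640 on the plus strand, had 135 and 264 CPM in Direct RNA Undiff and 102 and 150 CPM in Direct RNA Day4. In cDNA its levels were 241 and 422 CPM in Undiff and 222 and 261 CPM in Day4. The log2 fold changes were -0.75 (SE 0.45) and -0.76 (SE 0.40), and neither was called.

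Cbx5 (ENSMUSG00000009575), at chr15:103191544-103239816 on the minus strand, had 209 and 184 CPM in Direct RNA Undiff and 219 and 148 CPM in Direct RNA Day4. In cDNA its levels were 315 and 616 CPM in Undiff and 545 and 1010 CPM in Day4. The log2 fold changes were -0.22 (SE 0.39) and 0.40 (SE 0.43). The number of Cbx5 reads per Cbx1 read was 1.55 and 0.696 in Direct RNA Undiff, 2.14 and 0.982 in Direct RNA Day4, 1.31 and 1.46 in cDNA Undiff, and 2.46 and 3.87 in cDNA Day4. The states were apart in this ratio in cDNA and overlapped in Direct RNA.

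Cbx3 (ENSMUSG00000029836), at chr6:51470360-51483704 on the plus strand, had 11.5 and 20.9 CPM in Direct RNA Undiff and 24.7 and 8.13 CPM in Direct RNA Day4, from 4 to 19 reads in a library. In cDNA it had 2758 and 824 CPM in Undiff and 831 and 1112 CPM in Day4. A single library, cDNA Undiff replicate 1, stood above the other three. The log2 fold changes were -0.19 (SE 0.98) and -1.23 (SE 0.51). None of the 3 HP1 genes was called by DESeq2 in Direct RNA, where 0 had an unadjusted p under 0.05, as had 2965 of all 9646 genes, and edgeR called 0. None was called in cDNA, where 1 had an unadjusted p under 0.05, beside 3206 of all 10271 genes, and edgeR called 1, Cbx3 at -1.20. Without cDNA Undiff replicate 2 DESeq2 called Cbx3 at -1.89, and without Undiff replicate 1 its value was -0.10.

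**Figure D3:**
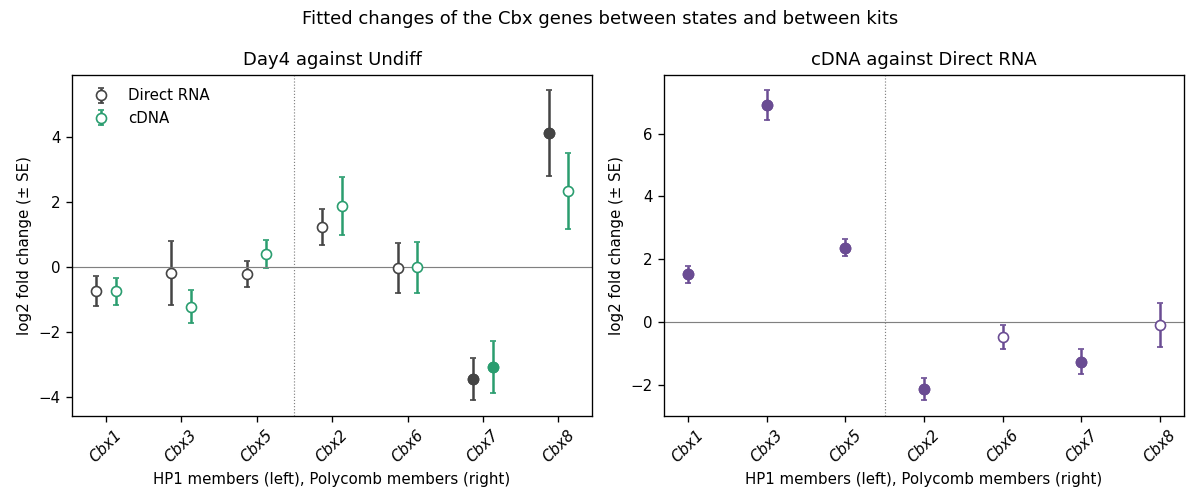
Fitted log2 fold changes of the 7 Cbx genes with their SE, for Day4 against Undiff by kit on the left and for cDNA against Direct RNA over both states on the right. Filled points were called and open points were not. Cbx7 lies near -3 on both kits, at -3.45 and -3.08, and Cbx3 stands apart between the kits at 6.91.

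The balance of the classes was measured as the log2 ratio of the summed HP1 reads to the summed reads of Cbx2, Cbx6, Cbx7 and Cbx8. In Direct RNA the ratio was 1.00 and 1.13 in Undiff and 0.89 and 1.08 in Day4. In cDNA it was 6.62 and 5.22 in Undiff and 5.61 and 5.49 in Day4. The states overlapped on both kits in reads, with mean differences of -0.08 and -0.37. Per kilobase of the longest transcript they did not overlap, so the separation came with this division. The longest transcript is a retained-intron one for Cbx3, Cbx6 and Cbx7 and a nonsense-mediated decay one for Cbx1, not a coding one. Whether long-read counts scale with that length was not tested. The Direct RNA ratios were then 1.39 and 1.87 before differentiation and 0.80 and 1.29 after it, a difference of -0.58, and the cDNA ratios were 7.61 and 5.99 before and 5.90 and 5.77 after it, a difference of -0.97. The sign of the cDNA difference in reads depended on Cbx3 and on 1 library. It was 0.36 when Cbx3 was left out, 0.33 without cDNA Undiff replicate 1 and 0.28 after thinning. Between the kits the ratios did not overlap, and HP1 reads outnumbered Polycomb reads far more in cDNA.

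The order of the levels was read per kilobase of the longest transcript, the same divisor as for the class ratio and with the same limits. In Direct RNA Undiff it ran from Cbx1 (84.0 ± 38.5 CPM per kb, SD, n = 2) through Cbx5 (22.4 ± 2.05), Cbx7 (21.3 ± 4.64), Cbx2 (10.3 ± 0.299), Cbx3 (5.54 ± 2.29) and Cbx6 (3.58 ± 0.104) to Cbx8, with 0 reads. Cbx5 and Cbx7 overlapped and the other neighbours did not. In Direct RNA Day4 the order was Cbx1, Cbx2, Cbx5, Cbx8, Cbx3, Cbx6 and Cbx7, from 53.2 ± 14.3 to 1.95 ± 0.539 CPM per kb. Overlaps there joined Cbx2 with Cbx5, Cbx8 with Cbx3, and Cbx3 with Cbx6. In cDNA Undiff the order was Cbx3, Cbx1, Cbx5, Cbx7, Cbx6, Cbx2 and Cbx8, from 612 ± 467 to 0.281 ± 0.0191 CPM per kb, with no overlap between neighbours. In cDNA Day4 it was Cbx3, Cbx1, Cbx5, Cbx2, Cbx8, Cbx6 and Cbx7, from 332 ± 67.8 to 0.539 ± 0.586 CPM per kb, and Cbx1 with Cbx5 and Cbx8 with Cbx6 overlapped. On this scale Cbx7 led the Polycomb members in Undiff and was the last of the 7 genes in Day4, on both kits. Per kilobase of the longest coding transcript Cbx7 stood above Cbx5 in Direct RNA Undiff. Part of the order depended on the division by length. In CPM alone Cbx5 stood above Cbx1 in every group but Direct RNA Undiff, without overlap in cDNA Day4, at 778 ± 329 against 241 ± 28.2 CPM, and Cbx6 stood above Cbx8 in Day4 on both kits, with overlap.

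All 3 HP1 genes were called higher in cDNA, and 2 of the 4 Polycomb members, Cbx2 and Cbx7, were called lower. The difference between the classes was not tested. Over all 8 libraries, with the state as a covariate, DESeq2 called 5 of the 7 genes, beside 24.7% of 10426 genes called higher in cDNA and 26.6% called lower. The 3 HP1 genes were higher in cDNA, Cbx1 by 1.51 (SE 0.27), Cbx5 by 2.36 (SE 0.27) and Cbx3 by 6.91 (SE 0.47) on the log2 scale. These fits use the library scaling of DESeq2, and CPM ratios between the kits differ from them in size. In CPM Cbx1 was only 1.66-fold higher in cDNA in Undiff, with overlap, and 1.91-fold higher in Day4, without overlap. Cbx2 at -2.14 (SE 0.36) and Cbx7 at -1.27 (SE 0.40) were lower in cDNA. Cbx6 at -0.49 (SE 0.39) and Cbx8 at -0.10 (SE 0.71) were not called. In CPM Cbx6 was lower in cDNA without overlap, 2.62-fold in Undiff and 2.19-fold in Day4. Cbx8 was 2.49-fold lower in cDNA in Day4 without overlap, while in Undiff it was at 1.01 CPM in cDNA and 0 in Direct RNA. The Cbx7 call was lost after thinning, at -1.37, and without Direct RNA Undiff replicate 2, at -1.04.

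Ranked by signed log2 fold change, Cbx3 had the second highest value toward cDNA of the 10426 genes, and differences toward Direct RNA were not ranked by size. Its mean was 110-fold higher in cDNA in Undiff and 59.2-fold higher in Day4. These ratios depended on single libraries, and ran from 50.8 to 170.1 in Undiff, lowest without cDNA replicate 1, and from 39.3 to 119 in Day4, where the Direct RNA libraries held 7 and 6 reads. Cbx3 made up between 2.65% and 7.14% of the HP1 reads in the Direct RNA libraries, and 83.2%, 44.2%, 52.0% and 46.6% in the cDNA libraries. Hnrnpa2b1, on the opposite strand 465 bases from Cbx3, showed no such gap, with 1530 ± 159 and 1239 ± 184 CPM in Direct RNA Undiff and Day4 and 485 ± 196 and 720 ± 73.9 CPM in cDNA. GENCODE lists 8 processed pseudogenes named after Cbx3, none of them in the counts, so any reads placed on them were not counted for Cbx3. Their sequences were not compared with Cbx3, and their part in the kit difference was not tested. In the other direction, the mean of Cbx2 was 12.3-fold higher in Direct RNA in Undiff and 5.99-fold higher in Day4, and that of Cbx7 4.81-fold and 3.61-fold. These CPM ratios are larger than the fitted -2.14 and -1.27 log2 units, which use the library scaling and shrinkage of DESeq2. Without 1 library the Undiff ratio of Cbx2 ran from 9.14 to 18.7, with 2 and 9 reads in cDNA, and the Day4 ratio of Cbx7 from 2.04 to 15.6, with 1 and 12 reads in cDNA.

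The difference of the change between the kits was fitted as an interaction over all 8 libraries and is also given as a description. DESeq2 called 0 of the 7 genes, beside 0.0116% of 17267 genes (2 genes). None had an unadjusted p under 0.05, and edgeR also called 0. The interaction of Cbx7 was 0.33 (95% interval -1.72 to 2.38) and that of Cbx2 was 0.74 (-1.14 to 2.62). That of Cbx8 was -3.12 (-7.66 to 1.43). These intervals are wide, and they do not show that the kits gave the same change.

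Other subunits of PRC1 were examined as a list of 17 genes. In Direct RNA 2 rose, Phc2 and Yaf2, and 1 fell, Phc1, where 9.54% of all genes tested were called higher and 7.67% lower. In cDNA Yaf2 rose and Phc1 and Pcgf6 fell, where the shares of all genes were 8.69% and 9.24%. Nothing particular to the list is read from these counts. The median log2 fold changes of the list were 0.52 and 0.24 against 0.03 and 0.00 over all genes tested. Only 15 of the 17 genes in Direct RNA and 13 in cDNA averaged 5 reads or more. The others are in the list medians but could not be called, and the values over all genes leave such genes out. Phc1, a Polyhomeotic subunit of canonical PRC1, fell in Direct RNA, where it averaged 403 ± 66.9 CPM (SD, n = 2) before and 74.7 ± 4.07 CPM after differentiation, with a change of -2.49 log2 units (SE 0.38, DESeq2 adjusted p = 4.04e-09). The cDNA libraries had 207 ± 7.95 CPM before and 29.8 ± 6.81 CPM after, and the change was -3.06 log2 units (SE 0.43, DESeq2 adjusted p = 1.54e-10). Yaf2, a subunit of variant PRC1 complexes that hold no Cbx protein, had 12.4 ± 1.23 CPM before and 182 ± 16.4 CPM after in Direct RNA, and it rose by 3.58 log2 units (SE 0.57, DESeq2 adjusted p = 3.03e-08). With cDNA the levels were 7.09 ± 1.90 and 98.0 ± 3.07 CPM, a rise of 3.39 log2 units (SE 0.58, DESeq2 adjusted p = 3.80e-07). Phc1 and Yaf2 were called on both kits without any 1 library. The Phc2 call was lost without each single Direct RNA library, and the Pcgf6 call without each single cDNA library, after thinning and under the replicate block. The edgeR test also called Bmi1 in Direct RNA, and Phc2 and Pcgf5 in cDNA. Rnf2, the catalytic E3 ligase of PRC1 and the gene with the highest level among those called on neither kit, had log2 fold changes of 0.52 (SE 0.44, DESeq2 adjusted p = 0.617) and 0.69 (SE 0.47, DESeq2 adjusted p = 0.471).

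Enzymes of H3 lysine 9 methylation and partners of HP1 were examined as a list of 18 genes, 17 of them with a read in cDNA. In Direct RNA 2 rose, Suv39h1 and Hp1bp3, and 3 fell, Trim28, Daxx and Cdyl2. In cDNA 1 rose, Hp1bp3, and 4 fell, Ehmt2, Trim28, Cdyl and Cdyl2. The background shares were those given for PRC1, 9.54% higher and 7.67% lower in the first kit and 8.69% and 9.24% in the second, and nothing particular to this list is read from the counts. The median log2 fold change was -0.32 in Direct RNA, where 17 of the 18 genes averaged 5 reads or more, and -0.46 in cDNA, where 16 of the 17 did. Trim28, the corepressor that recruits HP1 and Setdb1, had 2502 ± 84.7 CPM before and 1090 ± 15.2 CPM after in Direct RNA, and the change was -1.30 log2 units (SE 0.24, DESeq2 adjusted p = 4.26e-06). With cDNA the levels were 155 ± 65.8 and 73.4 ± 5.11 CPM, and the change was -1.36 log2 units (SE 0.45, DESeq2 adjusted p = 0.0249). Cdyl2, a chromodomain protein, fell by 3.30 (SE 0.84, DESeq2 adjusted p = 0.00171) and by 3.03 (SE 0.57, DESeq2 adjusted p = 4.85e-06) on the log2 scale. Hp1bp3, an HP1-binding linker histone relative, rose by 1.87 (SE 0.57, DESeq2 adjusted p = 0.0142) and by 2.57 (SE 0.58, DESeq2 adjusted p = 0.000255). Its Direct RNA call was lost without each single library and under the replicate block, and its cDNA call without either Day4 library and after thinning. Trim28 kept its Direct RNA call except without Undiff replicate 2, and lost its cDNA call without Undiff replicate 2, without either Day4 library and after thinning. Cdyl2 lost its Direct RNA call without either Undiff library and without Day4 replicate 2, and its cDNA call after thinning.

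Several of the H3 lysine 9 calls depended on single libraries. Without any 1 Direct RNA library the count of 5 went to 0, without Undiff replicate 2, or to 1 or 2, and under the replicate block to 2, Cdyl2 and Trim28. In cDNA the count of 5 went to 2 without Undiff replicate 2, to 1, Cdyl2, without either Day4 library, and to 0 when the libraries were thinned. Mphosph8, a reader of methylated H3 lysine 9 and the gene with the highest level among those DESeq2 called on neither kit, had log2 fold changes of -1.16 (SE 0.54, DESeq2 adjusted p = 0.180) and -0.77 (SE 0.39, DESeq2 adjusted p = 0.227). The edgeR test called Mphosph8 in Direct RNA. By DESeq2 Phc2, Pcgf6, Suv39h1, Daxx, Cdyl and Ehmt2 passed on 1 kit only and are named, as are Bmi1 and Pcgf5, because the counts are small, after their values were seen.

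**Figure D4:**
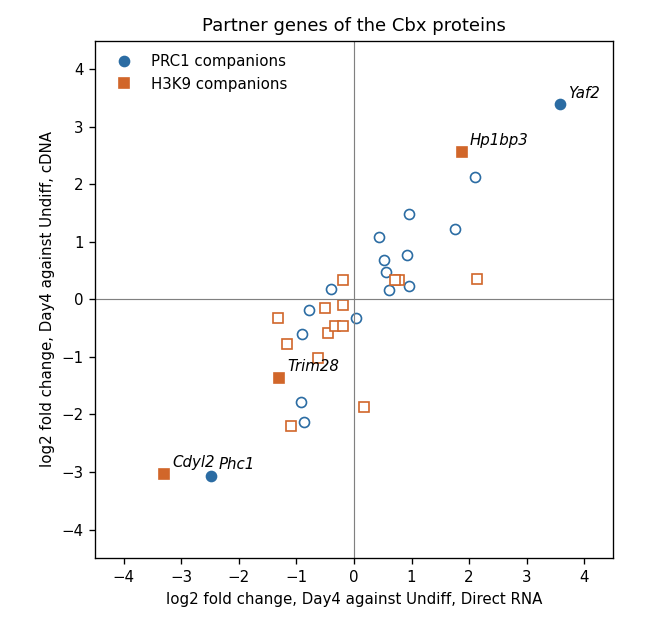
Log2 fold changes, Day4 against Undiff, of the PRC1 genes (circles) and the H3 lysine 9 genes (squares), with Direct RNA on the horizontal and cDNA on the vertical axis. Filled points were called on both kits, with Yaf2 at 3.58 and 3.39 and Hp1bp3 at 1.87 and 2.57 at the upper right, and Phc1, Trim28 and Cdyl2 at the lower left.

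The genes whose pattern was most like each Cbx gene were found by Pearson correlation of log2(CPM + 1) over the 8 libraries, among the 3791 or 3792 other genes that averaged 50 reads or more. Cbx7 was most like Dnajc21 (0.991), Tle4 (0.987) and Dnajc2 (0.984). Cbx2 was most like Sppl3 (0.991), Sh3glb1 (0.990) and Gtf2i (0.990), and Cbx6 like Ube2d2a (0.990), Ppp4r2 (0.988) and Csnk1a1 (0.988). Among the HP1 genes, Cbx1 was most like Zmat2 (0.984), Cbx3 like Gigyf1 (0.995) and Cbx5 like Coq5 (0.969). The 8 points fall into 4 groups that share kit and state, so these coefficients describe a shared pattern over groups. Cbx8, with a mean of 6.88 reads, was below the minimum of 10 and was not ranked.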

How the data were processed

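Whole-number read counts per gene symbol, as deposited, were made by the authors with minimap2 alignments to mm10 and htseq-count against the iGenomes UCSC annotation, with no normalization. Direct RNA was counted by strand. For cDNA the strand setting of the gene counts is not stated, while the study names only Direct RNA as strand-specific and counted cDNA exons without the strand. Each library lists 24421 genes, and counters of reads given to no gene were left out. Groups and replicate numbers came from the labels.

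The 7 Cbx genes, the gene lists and the tests were chosen with earlier results of these data known. The rule named the Cbx genes, PRC1 or H3 lysine 9 genes passing on both kits, and the highest-level gene of each list passing on neither. CPM values were computed from the counts. Tests used DESeq2 1.42.0 in R 4.3.3 with shrunken fold changes, without Cook's or independent filtering, for each kit, and over 8 libraries for the kit (state as covariate) and the interaction (no shrinkage, adjusted p only). Alternatives were edgeR 4.0.16, a minimum of 10 reads, no shrinkage, thinning to 283461 reads, a replicate block, and leaving out each library. The fits were also run on simulated data, with the same spread for every gene and changes planted only in genes above a read minimum. Those runs do not cover genes with few reads, such as Cbx6 and Cbx8, or the replicate spread of these libraries. Replicates of a group differed by more than sampling noise, with chi-square per degree of freedom from 2.68 to 14.9.

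RNA of the same cultures was used for both kits, so same-numbered libraries were taken as pairs in the replicate block of the kit and interaction fits. The main kit and interaction fits did not use this pairing and treated the 8 libraries as independent. The correlation of the differences between replicates, over 1395 genes, was 0.124 between the kits in Undiff and -0.416 in Day4. The Day4 value goes against the pairing, and those numbers may be crossed between the kits. Between the states it was 0.214 in Direct RNA and 0.500 in cDNA, where the numbers name separate cultures. 1 item, with the setting that needs it, is not reported here. Annotation was GENCODE vM21 on GRCm38, the assembly of mm10.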

Additional observations from a re-analysis of the deposited data

Results flagged for a closer look

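Ehmt2, an H3 lysine 9 methyltransferase, was called lower in cDNA and was not called in Direct RNA, where its libraries lay in the opposite order. In Direct RNA both Day4 libraries lay above both Undiff libraries, at 358 ± 2.31 (SD, n = 2) against 297 ± 47.1 CPM. In cDNA both lay below, at 20.7 ± 6.78 against 62.4 ± 16.7 CPM. The fitted change was 0.18 (SE 0.32, DESeq2 adjusted p = 0.909) with Direct RNA and -1.86 (SE 0.53, DESeq2 adjusted p = 0.00730) with cDNA, on the log2 scale. The cDNA call was lost without Undiff replicate 2, without either Day4 library and after thinning. The interaction of kit and state was -2.11 on the log2 scale (DESeq2 adjusted p = 0.612), which did not pass the threshold.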

How the results depend on the processing

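Of 217 alternative values of the 21 fold changes of the Cbx genes, 187 kept their direction and side of the threshold, 12 lost the call, 5 gained it and 13 changed sign. The count of the 7 genes called in Direct RNA went from 2 to 1 under the replicate block, to 1 after thinning, and to 0 to 1 without 1 library. In cDNA it went from 1 to 4 with edgeR, to 0 after thinning, and to 0 to 1 without 1 library. The 5 kit calls became 4 to 5 without 1 library, and remained 5 in number with the Day4 numbers of the cDNA libraries crossed in the block, an alternative chosen after seeing the data, which also called 0 interactions. The PRC1 count in cDNA went from 3 to 5 with edgeR. The H3 lysine 9 count in Direct RNA went from 5 to 2 under the replicate block, to 3 after thinning and to 0 to 2 without 1 library, and in cDNA to 0 after thinning and to 1 to 5 without 1 library. The block moved no other count of these lists by over 1.5 times.

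The sign changes were all in values that were not called. In Direct RNA Cbx3 was at 0.033 and Cbx6 at 0.11 after thinning. Without 1 library Cbx3 ran from -0.77 to 0.35, Cbx5 from -0.42 to 0.040 and Cbx6 from -0.13 to 0.049. In cDNA Cbx6 was at 0.018 with edgeR and ran from -0.35 to 0.31 without 1 library, and Cbx5 ran from -0.024 to 0.83 without 1 library. The kit difference of Cbx8 ran from -0.38 to 0.39 without 1 library and was -0.75 after thinning. The log2 ratio of HP1 to Polycomb reads differed between the states by -0.58 per kilobase in Direct RNA, and by -0.97 per kilobase and 0.36 without Cbx3 in cDNA, where it ran from -1.07 to 0.33 without 1 library. The ratios of mean levels without 1 library were also chosen after seeing the data. The causes were not tested. Few reads limit several of the genes, since Cbx2, Cbx3, Cbx7 and Cbx8 each had a group with 13 reads or fewer.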
